A study of Mus musculus with 12 samples.

Results

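Small leucine-rich proteoglycans are secreted proteins of the extracellular matrix, built from a curved array of leucine-rich repeats, many of which carry glycosaminoglycan chains. They bind collagen fibrils and set their diameter and spacing, hold growth factors of the transforming growth factor beta family, and in soluble form can engage receptors on cells. Fibroblasts are a main source of them in connective tissue. The 10 genes described here were taken by symbol from the 48709 gene IDs in the count tables: Bgn (biglycan), Dcn (decorin), Aspn (asporin), Ecm2, Fmod (fibromodulin), Lum (lumican), Omd (osteomodulin), Prelp, Ogn (osteoglycin) and Podn (podocan). All 10 symbols were found, and 7 genes passed the filter on low counts that left 14408 genes for testing. Aspn, Ecm2 and Lum did not pass.

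The libraries came from cultured mouse embryonic fibroblasts of strain C57BL/6, wild type (WT) or TAZKo, a line described as lacking tafazzin, in normoxia or after 24 hours of hypoxia at an oxygen level not stated in the labels. Tafazzin remodels the mitochondrial lipid cardiolipin, is encoded by Taz, and is a different protein from the transcriptional coactivator known as TAZ, which is encoded by Wwtr1. Each of the 4 groups (WT normoxia, TAZKo normoxia, WT hypoxia, TAZKo hypoxia) has 3 samples. Nothing in the labels says that samples of a group came from separate cultures or clones, so p-values measure the spread between these samples, which may be technical. Total counts per library ran from 21039451 to 31204510, and 3 counts were worth 0.0927 to 0.150 CPM, which states a gene's reads against the depth of its library. All CPM values carry the TMM scaling of edgeR (trimmed mean of M values). WT normoxia sample 1 stood apart from samples 2 and 3 of its group, with a chi-square per degree of freedom of 33.2 and 39.3 against 5.28 between the other pair, so results that rest on it are also given without it. To a lesser degree sample 1 also stood apart in WT hypoxia (12.5 and 12.7 against 3.42) and TAZKo normoxia (7.96 and 9.99 against 2.72). In TAZKo hypoxia the pairs had 4.37 to 4.94.

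Taz, the gene named in the label, was not lower in the TAZKo libraries. Normoxic libraries had 34.6 ± 2.92 CPM with the WT label and 42.2 ± 3.18 with the TAZKo label (SD, n = 3), and hypoxic libraries had 25.1 ± 1.49 and 33.8 ± 1.15. The labels do not say which part of Taz was altered, and counts over the whole gene do not check a change within it. The samples are therefore called the libraries labelled TAZKo. Of 9 fibroblast markers 8 were tested, with fibronectin (Fn1) highest, while Thy1 did not pass the filter and Postn was at 0.661 to 1.34 CPM on average. The summed level of 5 epithelial markers, led by the keratin Krt14, was 345 to 430 CPM in WT normoxia and 196 to 211 in TAZKo normoxia. In hypoxia it was 315 to 345 against 255 to 258 CPM. Krt14 had 244 CPM on average in WT normoxia and 104 in TAZKo normoxia, and 200 and 133 in hypoxia. Krt18 had 132 and 99.8 CPM in normoxia and 126 and 123 in hypoxia. Krt8 was at 0.492 to 1.20 CPM on average, and Epcam and Cdh1 did not pass the filter. The summed level of 5 endothelial markers was 18.1 to 21.01 CPM in WT normoxia and 5.64 to 7.45 in TAZKo normoxia, and 14.5 to 20.5 against 3.89 to 5.05 in hypoxia. Most of that sum was Tek, at 16.0 CPM on average in WT normoxia and 4.91 in TAZKo normoxia. Kdr had 3.15 and 0.998 CPM there, while Pecam1 went the other way, with 0.227 and 0.577. Cdh5 and Tie1 did not pass the filter. The 6 chondrocyte markers summed to 1.77 to 2.30 CPM in the normoxia libraries and 6.90 to 9.32 in the hypoxia libraries, with Col9a1 at 0. Most of that rise was Sox9, from 0.821 to 6.12 CPM on average in WT and from 1.38 to 6.37 in TAZKo. Col2a1 rose from 0.507 to 1.52 CPM in WT and from 0.258 to 1.27 in TAZKo. Comp went from 0.516 to 0.465 CPM in WT and from 0.401 to 0.310 in TAZKo, and Acan and Matn1 did not pass the filter. The 3 tendon markers summed to 41.7 to 62.3 CPM over all libraries, led by Scx, with Tnmd at 0. The 4 muscle markers, led by Des, summed to 3.90 to 5.00 CPM in WT normoxia against 9.49 to 10.5 in TAZKo normoxia and to 3.001 to 4.59 against 5.78 to 6.85 in hypoxia, with Myod1 at 0. The 5 leukocyte markers, led by Cd68, summed to 4.85 to 5.93 CPM in WT normoxia against 6.37 to 7.24 in TAZKo normoxia. In hypoxia they summed to 11.8 to 13.9 against 8.61 to 10.5 CPM, with Adgre1 at 0. Lyz2 had 0.356 CPM on average in WT normoxia against 1.95 in TAZKo normoxia, and 0.0726 against 0.588 in hypoxia. Csf1r went the other way, with 1.87 against 1.02 CPM in normoxia and 5.13 against 2.24 in hypoxia. Cd68 had 3.06 against 3.81 CPM in normoxia and 7.38 against 6.53 in hypoxia, and Ptprc did not pass the filter. The 4 adipocyte markers summed to at most 4.15 CPM. The part of these markers in the results on the proteoglycans was not tested.

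Ogn was the largest increase with the TAZKo label in hypoxia in an earlier report on these data, and how the other 9 genes were proposed is not recorded. Differences between the labels are therefore given for all 10 as descriptions with their standard errors (SE) and no test, and Ogn has no test in any comparison. A difference between the hypoxia responses is built from the same label differences, so its p-values may not be independent of the choice of genes. The samples of the labels did not overlap for 5 of the 7 genes in normoxia, beside 42.8% of all genes, and for 5 of the 7 in hypoxia, beside 50%. Ogn is among both counts, and nothing is read from them. The median log2 difference of the 7 was 0.41 in normoxia and 0.87 in hypoxia, against 0.01 and -0.01 over all tested genes.

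**Figure D1:**
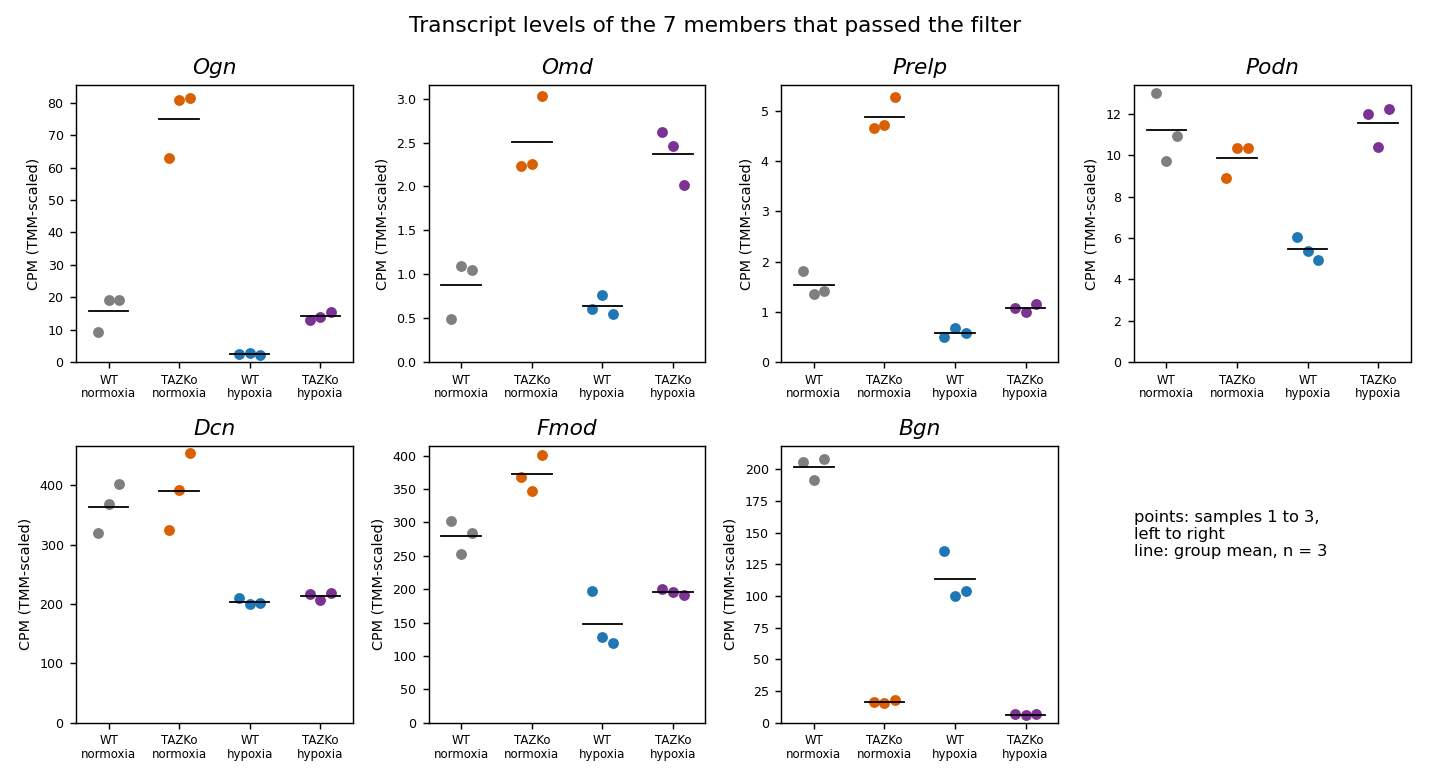
TMM-scaled CPM (vertical axes, each from 0) of the 7 proteoglycan genes that passed the filter in the 4 groups; points are samples 1 to 3 from left to right and lines are group means. Bgn sat between 100 and 209 CPM in the 6 WT libraries and between 5.78 and 18.3 in the 6 libraries labelled TAZKo, and Podn was lowest in WT hypoxia.

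Bgn and Dcn are the class I members that carry chondroitin or dermatan sulfate chains and bind type I collagen. Bgn (ENSMUSG00000031375, chromosome X, 73483602 to 73495933, plus strand, mm10) had 206, 191 and 209 CPM in WT normoxia and 16.1, 15.3 and 18.3 in TAZKo normoxia. In hypoxia it had 135, 100 and 104 CPM in WT and 6.61, 5.78 and 6.48 in TAZKo. Every library labelled TAZKo lay below every WT library in both conditions. The log2 difference was -3.60 (SE 0.115), a level 12.2-fold lower, in normoxia and -4.17 (SE 0.124), 18.0-fold lower, in hypoxia. In bulk RNA, fewer cells expressing a gene and less RNA per cell cannot be told apart. Col1a1, which encodes a chain of a collagen that biglycan binds, was also lower with the TAZKo label, from 2835 ± 402 to 1153 ± 14.3 CPM in normoxia (SD, n = 3). Col6a1, in the same list of binding partners and receptors, went the other way, from 1548 ± 147 to 1927 ± 79.8 CPM. Of the 18 genes in that list, 5 were higher and 6 lower in normoxia, beside 15.6% and 14.9% of all tested genes.

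Bgn also fell with hypoxia in both labels. The fall was 0.84 on the log2 scale in WT (log2 difference -0.84, SE 0.102, edgeR adjusted p = 1.37e-05) and larger in size in TAZKo (log2 difference -1.40, SE 0.125, edgeR adjusted p = 1.23e-06). All 3 hypoxia libraries lay below all 3 normoxia libraries of the same label. The difference between these responses was -0.57 (SE 0.161) and did not pass the threshold in edgeR (adjusted p = 0.0921). It passed in the Wald test of DESeq2 (-0.55, adjusted p = 0.0445) and in edgeR without the filter on low counts (-0.52, adjusted p = 0.00658), so this call differs between fits.

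The stretch before the Bgn start is shown because Bgn differed most between the labels, and the same motifs are searched before the other starts shown. The motifs were both cores of the hypoxia response element, written ACGTG or as the other core GCGTG, the TATA box written TATAAA, the GC box written GGGCGG, and the core bound by TEAD factors written GGAATG. They were searched on both strands in the 250 bases before each RefSeq start on GRCm38.p6. A member's window was cut short where an annotated exon of the gene reached into it, to 237 bases for Prelp and 114 for 1 Podn start. Among 32851 such windows, 16.6% hold the hypoxia core ACGTG, 28.2% the other hypoxia core, 12.4% the TATA box, 32.7% the GC box and 12.6% the TEAD core. RefSeq windows were given for 8 of the 10 genes. The Bgn window, chrX:73483351-73483600, plus strand, 5′ to 3′ with matches in capitals, holds GCGTG beginning 199 bases before the start and GGGCGG on the other strand beginning 34, 10 and 6 bases before it, the last pair overlapping.
Bgn: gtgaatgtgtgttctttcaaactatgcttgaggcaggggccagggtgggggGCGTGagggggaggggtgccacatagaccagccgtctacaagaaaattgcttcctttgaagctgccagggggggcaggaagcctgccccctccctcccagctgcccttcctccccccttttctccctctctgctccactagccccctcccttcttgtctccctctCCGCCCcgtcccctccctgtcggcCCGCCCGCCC

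Dcn (ENSMUSG00000019929, chromosome 10, 97479609 to 97518143, plus strand) encodes decorin, which coats collagen fibrils and binds transforming growth factor beta. It had 319, 369 and 401 CPM in WT normoxia and 325, 392 and 454 in TAZKo normoxia. In hypoxia it had 210, 200 and 202 CPM in WT and 216, 207 and 218 in TAZKo. The labels overlapped in both conditions, with log2 differences of 0.10 (SE 0.104) in normoxia and 0.07 (SE 0.105) in hypoxia. The sign in normoxia rests on the samples: it was -0.05 without TAZKo normoxia sample 3. Across the 676 tested genes of chromosome 10 the median log2 difference between the labels was 0.31 in normoxia and 0.29 in hypoxia, 0.30 and 0.29 above the median of all genes, so Dcn was below the median of its own chromosome. The part of that chromosome-wide difference in the Dcn values was not tested. Dcn fell with hypoxia by nearly the same amount in both labels, with log2 differences of -0.83 (SE 0.105, edgeR adjusted p = 1.90e-05) in WT and -0.87 (SE 0.105, edgeR adjusted p = 1.89e-05) in TAZKo. All hypoxia libraries lay below all normoxia libraries, and the difference between the responses was -0.04 (SE 0.147, edgeR adjusted p = 0.931).

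Aspn and Ecm2 were near the limit of detection. Aspn encodes asporin, a class I protein that binds collagen and carries no glycosaminoglycan chain. In normoxia it had 0, 0 and 1 counts with the WT label and 1, 3 and 7 with the TAZKo label, and in hypoxia 2, 0 and 2 against 3, 2 and 5. Ecm2, a larger matrix protein with leucine-rich repeats, had 2, 2 and 3 counts in normoxia with the WT label and 7, 3 and 9 with the TAZKo label, and in hypoxia 2, 3 and 7 against 6, 3 and 5. No test of these genes is given, since neither passed the filter, so a difference between groups is neither shown nor excluded at this depth. Lum, which encodes lumican, a class II protein of cornea and skin, had 2 counts in WT normoxia sample 3, 1 count in each of TAZKo normoxia samples 1 and 3, and 0 counts in the other libraries. Lum lies next to Dcn, at 97565128 to 97572703 on chromosome 10, and no gene that is not a member passed the filter within 500 kb of the pair.

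Fmod, Prelp and Omd are the class II members that were expressed above the filter. Fmod (ENSMUSG00000041559, chromosome 1, 134037254 to 134048277, plus strand) encodes fibromodulin, a keratan sulfate proteoglycan with sulfated tyrosines that binds the same collagens as decorin at another site. It had 301, 253 and 284 CPM in WT normoxia and 369, 347 and 401 in TAZKo normoxia, so the labels did not overlap. In hypoxia it had 197, 128 and 119 CPM in WT and 200, 196 and 191 in TAZKo, where WT sample 1 reached the TAZKo samples. The log2 difference was 0.41 (SE 0.143) in normoxia and 0.41 (SE 0.144) in hypoxia, and 0.65 (SE 0.0819) in hypoxia without WT hypoxia sample 1. Fmod fell with hypoxia in WT (log2 difference -0.92, SE 0.145, edgeR adjusted p = 0.000137) and in TAZKo (log2 difference -0.93, SE 0.144, edgeR adjusted p = 0.000172). Every hypoxia library lay below every normoxia library of its label. The difference between the responses was -0.01 (SE 0.203, edgeR adjusted p = 0.994).

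Prelp (ENSMUSG00000041577, chromosome 1, 133910304 to 133921414, minus strand) encodes a protein with an arginine- and proline-rich end that binds heparan sulfate and links basement membranes to collagen. It lies beside Fmod. It had 1.81, 1.36 and 1.41 CPM in WT normoxia and 4.67, 4.72 and 5.29 in TAZKo normoxia. In hypoxia it had 0.500, 0.673 and 0.582 CPM in WT and 1.07, 1.003 and 1.15 in TAZKo. All libraries labelled TAZKo were above the WT libraries of the same condition, with log2 differences of 1.68 (SE 0.144) in normoxia and 0.87 (SE 0.212) in hypoxia. Prelp fell with hypoxia in WT (log2 difference -1.37, SE 0.201, edgeR adjusted p = 7.59e-05). It also fell in TAZKo (log2 difference -2.19, SE 0.150, edgeR adjusted p = 1.01e-07). The hypoxia libraries lay below all normoxia libraries of each label. The difference between the falls was -0.82 (SE 0.265) and did not pass the threshold (edgeR adjusted p = 0.153). Prelp shares 350 exon bases with the antisense gene Gm15851, and the library kit named in the labels does not mark strand, so reads over those bases cannot be told apart.

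Omd (ENSMUSG00000048368, chromosome 13, 49582462 to 49592822, plus strand) encodes osteomodulin, an acidic keratan sulfate protein with sulfated tyrosines found in bone and tooth matrix. It had 0.487, 1.10 and 1.05 CPM in WT normoxia and 2.23, 2.25 and 3.03 in TAZKo normoxia, from 11 to 98 counts per library. In hypoxia it had 0.600, 0.763 and 0.546 CPM in WT and 2.62, 2.46 and 2.02 in TAZKo. The labels did not overlap in either condition, and the log2 difference was 1.51 (SE 0.247) in normoxia and 1.89 (SE 0.269) in hypoxia. With hypoxia Omd did not pass the threshold in WT (log2 difference -0.49, SE 0.317, edgeR adjusted p = 0.219) or in TAZKo (log2 difference -0.11, SE 0.210, edgeR adjusted p = 0.719), and the normoxia and hypoxia samples overlapped in both. Without WT normoxia sample 1 the WT value was -0.76 and passed (edgeR adjusted p = 0.0361). The osteoblast markers summed to 56.2 to 79.2 CPM over all libraries, with overlapping ranges in the labels. Most of that sum was Runx2, at 45.8 CPM on average in WT normoxia and 54.1 in TAZKo normoxia. Alpl went the other way, with 13.4 and 6.69 CPM there, and 5.38 and 2.54 in WT and TAZKo hypoxia. Sp7 had 0.901 and 0.480 CPM in WT and TAZKo normoxia and 0.320 and 0.257 in hypoxia. Bglap, Ibsp and Dmp1 did not pass the filter.

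Ogn (ENSMUSG00000021390, chromosome 13, 49608046 to 49624501, plus strand) encodes osteoglycin, also called mimecan, a class III protein of bone, vessel wall and cornea that takes part in collagen fibril assembly. It had 9.11, 19.1 and 19.0 CPM in WT normoxia and 62.9, 80.9 and 81.6 in TAZKo normoxia. In hypoxia it had 2.45, 2.65 and 2.11 CPM in WT and 12.9, 13.8 and 15.4 in TAZKo. Each TAZKo sample was above each WT sample of its condition, and each hypoxia sample was below each normoxia sample of its label. The level in TAZKo hypoxia overlapped that in WT normoxia. The log2 difference between the labels was 2.25 (SE 0.203), 4.76-fold, in normoxia and 2.56 (SE 0.266), 5.88-fold, in hypoxia. The log2 difference between hypoxia and normoxia was -2.72 (SE 0.265), 6.60-fold lower, in WT and -2.42 (SE 0.205), 5.34-fold lower, in TAZKo. WT normoxia sample 1 was the lowest of its group, and without it the normoxia difference between the labels was 1.98, the WT hypoxia difference was -3.00, and the difference between the responses was 0.58 in place of 0.31.

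Ogn and Omd are neighbours on the plus strand of chromosome 13, in the order Ecm2, Aspn, Omd and Ogn, and all 4 lie within the antisense gene Cenpp. Cenpp shares no exon base with Ogn, Omd or Ecm2 and 7 with Aspn. Cenpp itself, a centromere protein gene, had log2 differences between the labels of 0.27 (SE 0.118) in normoxia and -0.09 (SE 0.117) in hypoxia. Within 500 kb of the cluster, 10 genes that are not members passed the filter. Their log2 differences between the labels ran from -0.37 (Gm7251) to 1.14 (Wnk2) in normoxia and from -0.33 (Nol8) to 1.22 (Wnk2) in hypoxia, with medians of -0.02 and 0.02. Ogn and Omd were above every one of them in both conditions. The kinase gene Wnk2, which regulates ion transport, also fell with hypoxia, with log2 differences of -0.97 for WT (edgeR adjusted p = 0.000324) and -0.90 for TAZKo (adjusted p = 0.000121). The other genes of that window included Fgd3, which rose with hypoxia by 1.07 in WT (edgeR adjusted p = 3.50e-08), opposite to Ogn.

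**Figure D2:**
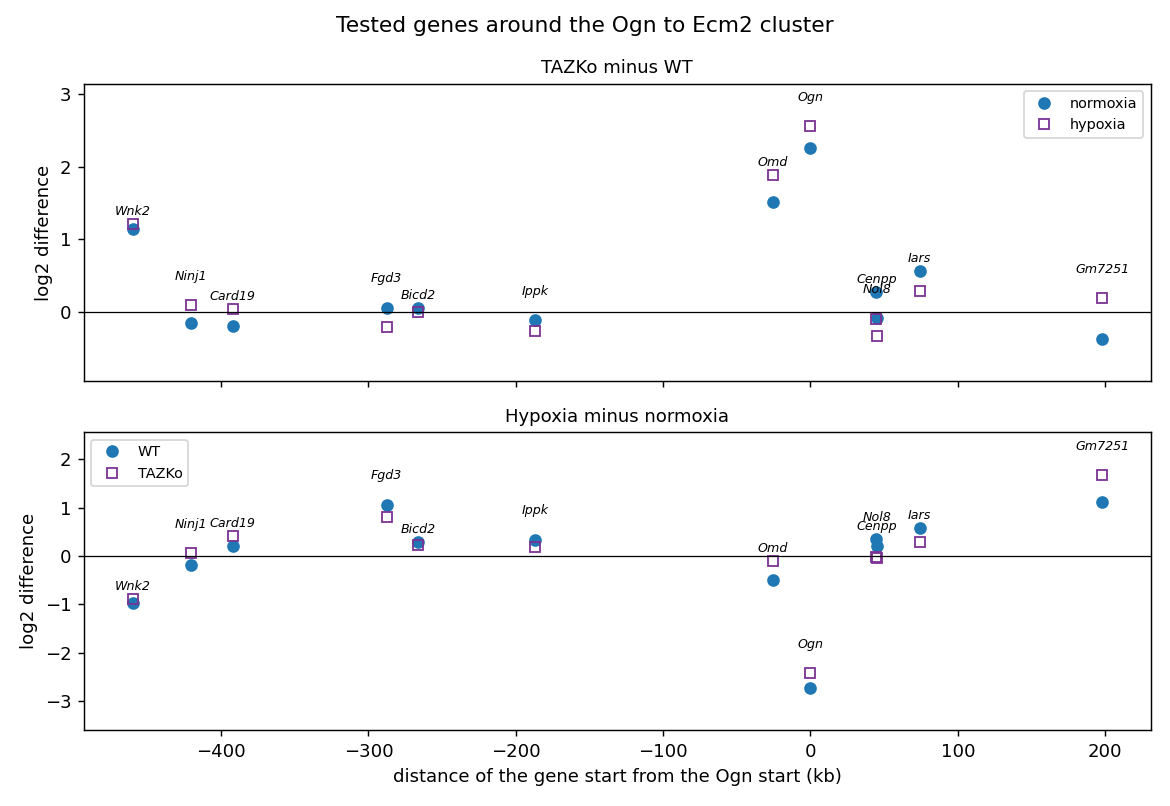
Fitted log2 differences (vertical axes) of Ogn, Omd and the 10 other tested genes within 500 kb of the chromosome 13 cluster against the distance of each gene's start from the Ogn start in kb; the upper panel is TAZKo minus WT in normoxia (filled circles) and hypoxia (open squares), the lower panel hypoxia minus normoxia in WT (filled circles) and TAZKo (open squares). Ogn and Omd stand above the other genes in the upper panel, and Ogn alone is at -2.42 and -2.72 in the lower panel.

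The windows before the Ogn and Omd starts are shown side by side because these neighbours differed between the labels in the same direction but only Ogn was far lower in hypoxia. The Ogn window, chr13:49607765-49608014, plus strand, has TATAAA on both strands, overlapping, beginning 229 and 227 bases before the RefSeq start, and GGAATG beginning 86 bases before it. The Omd window, chr13:49582212-49582461, plus strand, has no match to any of the 5 motifs. Capitals mark the matches, both sequences run 5′ to 3′ and come from RefSeq on GRCm38.p6.
Ogn: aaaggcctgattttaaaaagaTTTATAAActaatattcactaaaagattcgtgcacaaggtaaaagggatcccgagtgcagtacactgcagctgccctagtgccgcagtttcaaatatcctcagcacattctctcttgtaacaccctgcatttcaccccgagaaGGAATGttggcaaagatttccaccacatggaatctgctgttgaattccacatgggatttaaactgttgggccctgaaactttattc
Omd: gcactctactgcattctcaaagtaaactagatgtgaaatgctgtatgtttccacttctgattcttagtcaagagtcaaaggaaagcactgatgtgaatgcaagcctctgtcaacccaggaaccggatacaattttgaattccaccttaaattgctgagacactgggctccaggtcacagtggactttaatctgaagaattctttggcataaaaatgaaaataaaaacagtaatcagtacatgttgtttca

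The 5 tested genes whose log2 CPM followed Ogn most closely over the 12 samples were Slc7a2 (Pearson r = 0.989), Apobec3 (0.985), Eogt (0.984), Tbc1d32 (0.984) and Pard3b (0.983). These correlations are descriptions with no test, over samples that share the same 4 groups and libraries. Slc7a2, a transporter of cationic amino acids on chromosome 8, had log2 differences of 0.53 and 0.46 between the labels in normoxia and hypoxia, and of -0.47 and -0.53 between hypoxia and normoxia in WT and TAZKo. The differences of Ogn were several times as large on the same scale.

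Podn (ENSMUSG00000028600, chromosome 4, 108014791 to 108096445, minus strand) encodes podocan, a class V protein of the vessel wall and kidney that binds type I collagen. It had 13.004, 9.74 and 10.9 CPM in WT normoxia and 6.05, 5.38 and 4.95 in WT hypoxia. In the libraries labelled TAZKo it had 8.88, 10.4 and 10.4 CPM in normoxia and 12.005, 10.4 and 12.3 in hypoxia. The WT hypoxia samples were below all other libraries, and the labels overlapped in normoxia. Podn fell with hypoxia in WT (log2 difference -1.05, SE 0.128, edgeR adjusted p = 1.44e-05), a level 2.06-fold lower. In TAZKo the difference was 0.23 (SE 0.118) and did not pass the threshold (edgeR adjusted p = 0.142). The difference between the responses was itself tested and was 1.27 (SE 0.174, edgeR adjusted p = 0.00207). It equals the label difference in hypoxia less that in normoxia. How Podn was proposed is not recorded, so this p-value may draw on values that led to its choice. Podn was the only one of the 6 proteoglycan genes tested to pass the test of this difference. Of all tested genes 2.43% passed it, with 0.722% in the direction of Podn and 1.71% in the other. The value ran from 1.16 to 1.38 over 21 other settings and passed in each, with adjusted p-values up to 0.0116. Between the labels the log2 difference of Podn was -0.18 (SE 0.119) in normoxia and 1.09 (SE 0.127) in hypoxia, where every TAZKo sample was above every WT sample.

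The window before one of the 2 RefSeq starts of Podn, chr4:108030987-108031236, minus strand, is shown 5′ to 3′ because Podn was the gene whose hypoxia response differed between the labels. It holds GCGTG, in capitals, beginning 43 bases before the start. The window of the other Podn start, cut to 114 bases and not shown, holds GCGTG beginning 223 bases before that start. It also holds GGGCGG beginning 202 bases before that start. GCGTG is in 28.2% of all windows and GGGCGG in 32.7%, and a match is not a measured binding site.
Podn: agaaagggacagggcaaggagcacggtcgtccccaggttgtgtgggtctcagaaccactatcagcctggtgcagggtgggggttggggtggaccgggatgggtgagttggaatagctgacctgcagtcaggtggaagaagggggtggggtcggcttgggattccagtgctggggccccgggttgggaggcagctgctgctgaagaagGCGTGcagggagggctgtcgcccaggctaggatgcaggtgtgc

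**Figure D3:**
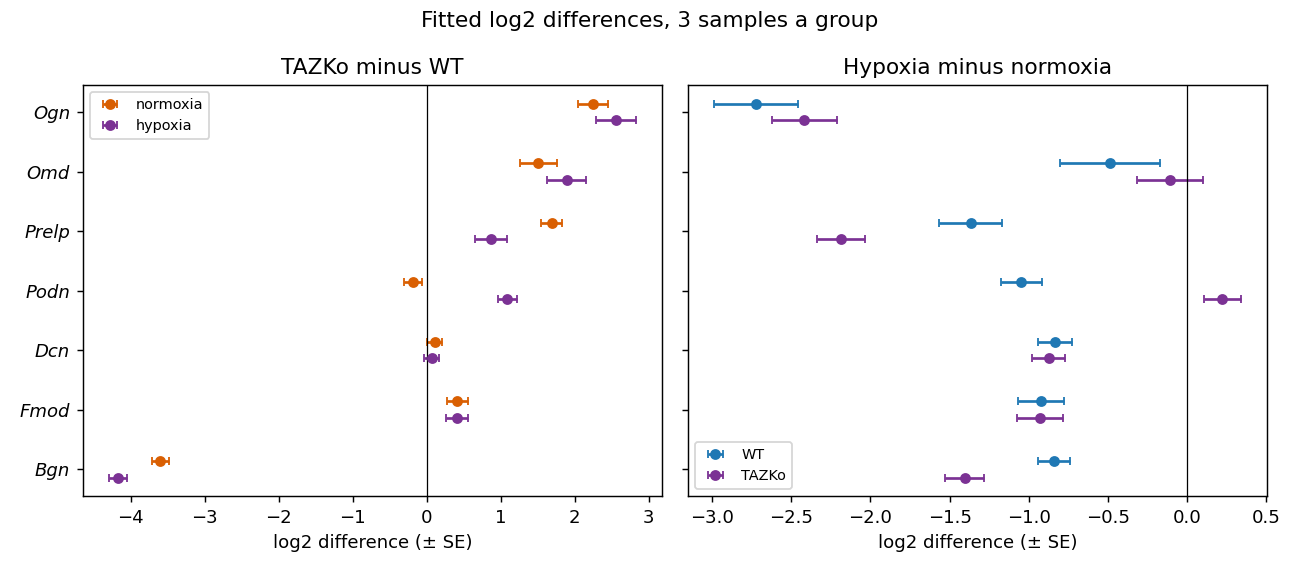
Fitted log2 differences with SE bars (horizontal axes) of the 7 genes that passed the filter, 3 samples a group; left, TAZKo minus WT in normoxia and hypoxia, right, hypoxia minus normoxia in WT and TAZKo. Bgn lies at -3.60 and -4.17 on the left, and Podn is the gene whose hypoxia values lie on opposite sides of 0, at -1.05 and 0.23.

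Among the genes with a test, Bgn, Dcn, Fmod, Prelp and Podn fell in hypoxia in WT, 5 of 6, beside 51% of all tested genes past the threshold, 26% higher and 25% lower. In TAZKo Bgn, Dcn, Fmod and Prelp fell, 4 of 6, beside 43.8% past the threshold, 22.2% higher and 21.6% lower. None of the 6 rose past the threshold in either label. In WT, normoxia and hypoxia samples did not overlap for Bgn, Dcn, Fmod, Prelp and Podn, beside 54.6% of all tested genes. In TAZKo they did not overlap for the same 5, beside 61.1%. There the hypoxia samples of Podn lay above its normoxia samples, with a log2 difference of 0.23 that did not pass the threshold. With Ogn included, the median log2 difference of the 7 was -0.92 in WT and -0.93 in TAZKo, against 0.01 and -0.01 over all tested genes. The comparisons between labels and between conditions share libraries and are not independent of each other.

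Levels between genes were compared per kilobase (kb) of the longest coding transcript. In WT normoxia the order was Dcn at 207 ± 23.5 CPM per kb (SD, n = 3), Fmod at 89.6 ± 7.80, Bgn at 83.5 ± 3.80, Ogn at 6.13 ± 2.23, Podn at 3.54 ± 0.521, Prelp at 0.423 ± 0.0686 and Omd at 0.390 ± 0.151. Fmod and Bgn overlapped there, as did Ogn and Podn, and Prelp and Omd. In TAZKo normoxia the order was Dcn (222 ± 36.6 CPM per kb), Fmod (119 ± 8.72), Ogn (29.3 ± 4.14), Bgn (6.85 ± 0.629), Podn (3.11 ± 0.269), Prelp (1.35 ± 0.0942) and Omd (1.11 ± 0.202), with overlap only between the last pair. Ogn thus stood below Bgn in the WT libraries and above it in the libraries labelled TAZKo. In WT hypoxia Fmod (47.4 ± 13.6 CPM per kb) and Bgn (46.8 ± 7.95) overlapped below Dcn (116 ± 3.04), and Podn (1.72 ± 0.175) was above Ogn (0.936 ± 0.106). In TAZKo hypoxia Ogn (5.47 ± 0.490), Podn (3.65 ± 0.317) and Bgn (2.60 ± 0.185) followed Dcn (121 ± 3.41) and Fmod (62.8 ± 1.48) in that order without overlap. With the union of all exons as length, Fmod came above Dcn in all 4 groups, with a union for Dcn of 5838 bases against 1758 in its longest coding transcript. Bgn, with 6099 against 2419 bases, then came just below Omd in TAZKo hypoxia, at 1.03 against 1.05 CPM per kb.

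The summed level of the 10 genes in normoxia was 390 ± 23.9 CPM per kb with the WT label and 383 ± 46.6 with the TAZKo label, and in hypoxia it was 213 ± 24.6 and 197 ± 4.01. With the longest coding transcript as length, the labels overlapped in the sum while differing in its make-up. The sum was not compared per kb of the union of exons, where the order of the labels may differ. With that length Fmod had 84.6 CPM per kb in WT normoxia and 113 in TAZKo normoxia, and 44.8 and 59.3 in hypoxia. Dcn had 62.2 and 66.9 in normoxia and 34.9 and 36.6 in hypoxia. Ogn had 6.13 and 29.3, then 0.936 and 5.47. Bgn went the other way, with 33.1 and 2.72, then 18.5 and 1.03. The likeness of the sums is therefore stated for the longest coding transcript alone. Bgn took 21.4% ± 1.26 of the sum in WT normoxia and 1.79% ± 0.145 in TAZKo normoxia, and 21.8% ± 1.19 against 1.32% ± 0.0680 in hypoxia. Dcn took 52.9% ± 3.46 in WT normoxia and 57.8% ± 2.85 in TAZKo normoxia, and Fmod 23.0% ± 2.58 and 31.3% ± 3.03. Ogn took 1.56% ± 0.530 and 7.64% ± 0.616 in normoxia with the WT and TAZKo labels, and 0.442% ± 0.0659 and 2.77% ± 0.252 in hypoxia. These shares depend on the length used: per kb of the union of exons Dcn took 30.8% to 35.1% and Fmod 43.8% to 55.7% over the 4 groups. Bgn then took 17.5% in WT normoxia and 1.26% in TAZKo normoxia, and 18.4% and 0.968% in hypoxia.

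**Figure D4:**
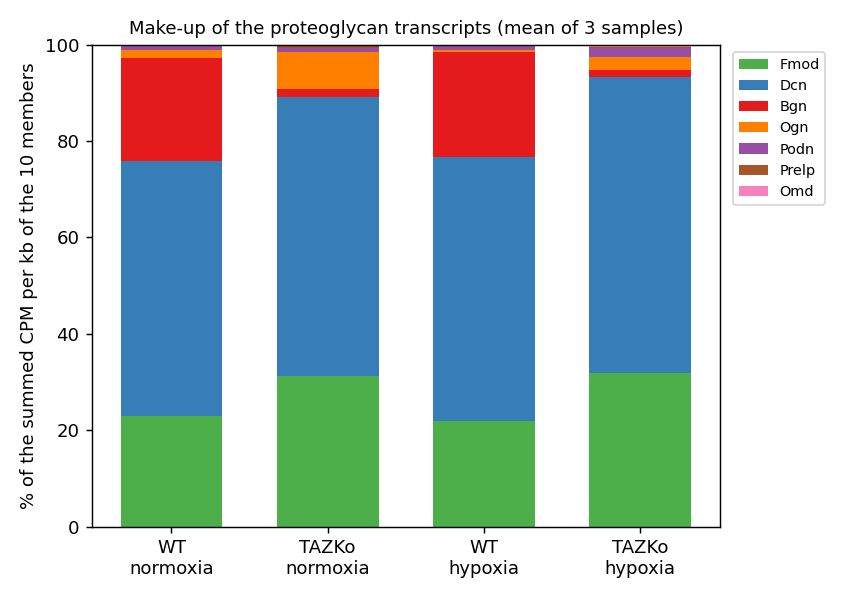
Share (%) of the summed CPM per kb of the 10 genes taken by each of the 7 that passed the filter, by group (mean of 3 samples, length of the longest coding transcript). Bgn takes 21.4% and 21.8% in the WT groups and 1.79% and 1.32% in the TAZKo groups, while Dcn takes 52.9% to 61.5% in all 4 with this length and 30.8% to 35.1% with the union of exons.

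Of 8 further genes of the family, Optc, Chad, Chadl, Nyx, Tsku and Podnl1 passed the filter. Kera was at 0 counts in all libraries and Epyc at 0 to 2. Tsku, which encodes a secreted inhibitor of several growth factor pathways, rose with hypoxia, from 26.5 ± 2.40 to 49.1 ± 3.13 CPM in WT (log2 difference 0.89, edgeR adjusted p = 6.64e-07) and from 20.7 ± 1.39 to 45.5 ± 0.616 in TAZKo (1.13, edgeR adjusted p = 1.21e-07), opposite to Dcn, Fmod and Bgn. Podnl1, the relative of Podn, rose by 0.72 in WT and 0.33 in TAZKo and passed in both. Nyx was lower with the TAZKo label in normoxia (log2 difference -1.998, SE 0.271, edgeR adjusted p = 8.87e-05), at 0.411 ± 0.0461 CPM against 1.66 ± 0.290. Of the 6, 1 was higher and 4 lower with the TAZKo label in normoxia, 1 higher and 1 lower in hypoxia, and none differed in its hypoxia response (smallest interaction in edgeR adjusted p = 0.117, Nyx).

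Genes that build, sulfate, cut or bind these proteins were followed as lists chosen by function. Their counts stand beside those of all tested genes, of which 30.4% passed the threshold between the labels in normoxia (15.6% higher and 14.9% lower) and 32.8% in hypoxia (15.8% higher and 16.9% lower). For hypoxia against normoxia those shares were 26% higher and 25% lower in WT and 22.2% and 21.6% in TAZKo. Of 18 tested enzymes of the linker and the chondroitin or dermatan chain, 6 were higher and 3 lower with the TAZKo label in normoxia and 8 higher and 2 lower in hypoxia, with medians of 0.07 and 0.18. Csgalnact1, which starts the chondroitin chain carried by Bgn and Dcn, was lower in normoxia (log2 difference -4.11, SE 0.196, edgeR adjusted p = 5.59e-09). In hypoxia its difference was -3.27 (edgeR adjusted p = 4.50e-08). It stood at 8.30 ± 0.490 CPM in WT normoxia and 0.466 ± 0.106 in TAZKo normoxia. Ust, which sulfates uronic acid in that chain, was higher by 1.90 and 1.56. Of 7 tested keratan sulfate enzymes, 1 was higher and 3 lower in normoxia, and the 1 was the sulfotransferase gene Chst1, with log2 differences of 1.85 in normoxia and 1.88 in hypoxia (edgeR adjusted p = 1.02e-08 and 7.63e-09). With hypoxia, 5 of these 7 fell in WT and 4 in TAZKo, none rose, and the medians were -0.42 and -0.22.

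Of 6 genes listed for tyrosine sulfation, the modification of Fmod and Omd, 4 rose and 1 fell with hypoxia in each label. Only Tpst1 and Tpst2 of that list encode enzymes that sulfate tyrosine, and the others supply a sulfate donor that sugar chains also use. The 1 that fell was Tpst1, a protein-tyrosine sulfotransferase gene, by 0.33 on the log2 scale in WT and by 0.42 in TAZKo, while Tpst2 rose by 0.39 and 0.55. Of 9 tested proteases known to cut members, 2 were higher and 5 lower with the TAZKo label in normoxia, among them the collagenase gene Mmp13 (-2.11) and the aggrecanase gene Adamts4 (-1.06). Mmp3, below the 5 CPM asked of named genes and named after its value was seen, stood at -1.92 (edgeR adjusted p = 0.00444). Of 18 binding partners and receptors, 5 were higher and 6 lower in normoxia and 6 higher and 6 lower in hypoxia. The receptor gene Tlr2, whose product soluble biglycan engages, was 1.35 higher in normoxia and 0.73 higher in hypoxia on the log2 scale, while Bgn was lower. Among 11 larger or cell-surface proteoglycans, 6 were higher and 3 lower with the TAZKo label in normoxia, among them Sdc3 (1.40) and Cd44 (1.19).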

How the data were processed

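RNA from 12 samples was sequenced from Illumina TruSeq RNA v2 libraries, per the labels' protocols, a kit that does not mark strand. The authors deposited 1 table per sample of whole-number read counts per Ensembl gene, not normalized. The build is mm10, per the submitters' processing notes. The aligner, counter, its strand setting and its handling of shared reads are not given in the sources used here.

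Gene IDs were matched to GENCODE M21 symbols and coordinates (48349 of 48709). Counts were filtered with filterByExpr, scaled by TMM and tested with the quasi-likelihood F test of edgeR 4.0.16 (under R 4.3.3, with limma 3.58.1), all 12 samples and 4 groups in 1 model, with Benjamini-Hochberg adjustment over 14408 genes and a threshold of 0.05. An SE is the log2 difference divided by the square root of F. Total counts were 21039451 to 31204510, and floors of 3 counts cover counting error only. The code was tested on simulated data.

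The members and lists were chosen with earlier results of these data known. Named were all members, Taz, every measured other family gene, up to 2 largest rises and falls per other list and comparison past the threshold with a mean of at least 5 CPM, the tested genes within 500 kb of the chromosome 13 cluster, and the 5 genes most correlated with Ogn. Alternatives were other scalings, filters and designs, DESeq2 1.42.0, and leaving out each sample.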

Additional observations from a re-analysis of the deposited data

Results flagged for a closer look

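Differences in the hypoxia response between the labels, (TAZKo hypoxia minus normoxia) minus (WT hypoxia minus normoxia), passed the edgeR interaction test for 1 proteoglycan gene and for 5 genes of the related lists. Podn stood at 1.27 on the log2 scale (adjusted p = 0.00207), falling in WT and not passing in TAZKo. Its p-value may not be independent of how the gene was chosen. Fbn1, which encodes fibrillin-1 of the elastic microfibrils that bind biglycan and decorin, stood at 0.94 (adjusted p = 0.000491), with 17.5 ± 0.773 and 37.9 ± 0.974 CPM in WT normoxia and hypoxia and 3.39 ± 0.0457 and 14.1 ± 0.717 in TAZKo (SD, n = 3, edgeR).

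Adamts5, a protease gene, stood at -0.86 (edgeR adjusted p = 0.00684), with 32.2 ± 4.61 and 61.9 ± 4.89 CPM in WT and 41.3 ± 2.56 and 43.5 ± 4.01 in TAZKo. Mmp2, the gelatinase gene, stood at 0.69 (edgeR adjusted p = 0.0189), falling from 143.5 ± 14.7 to 89.3 ± 13.8 CPM in WT and at 107.6 ± 5.64 and 107.9 ± 1.008 in TAZKo. Without WT hypoxia sample 3 its adjusted p was 0.0528. Tlr2 stood at -0.63 (edgeR adjusted p = 0.00497), with 16.9 ± 0.541 and 23.8 ± 1.82 CPM in WT and 43.2 ± 1.86 and 39.4 ± 1.26 in TAZKo. Cd44, a surface receptor gene, stood at -0.74 (edgeR adjusted p = 0.0380) and missed the threshold when any 1 of 10 samples was left out (all but sample 1 of WT normoxia and of WT hypoxia), with adjusted p-values of 0.0539 to 0.131.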

How the results depend on the processing

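No count of calls between the labels is given for the proteoglycan genes, since those differences carry no test. Over 22 other settings the Bgn log2 difference between the labels ran from -3.72 to -3.59 in normoxia and from -4.25 to -4.04 in hypoxia. That of Ogn ran from 1.98 to 2.38 and from 2.45 to 2.63. Among the members only Dcn in normoxia changed sign, at -0.05 without TAZKo normoxia sample 3. Omd and Prelp were not fitted with a mean of at least 5 CPM. The count of proteoglycan genes past the threshold for the difference between the responses was 1. That count was 2 with the DESeq2 Wald test, with no filter, with the replicate block, and without WT normoxia sample 1 with the replicate block (chosen after seeing the data). Bgn was the gene added each time (adjusted p = 0.0347 in edgeR with the replicate block and 0.0414 without that sample), and the cause was not tested. No label says that a sample number marks a shared day or batch, and the fits left it out. The deviations of same-numbered samples correlated at -0.09 to 0.37 (median 0.11, against -0.06 for other pairs), 10 of 18 over 0.1, and 9 of 12 samples correlated best with their own number, a hint from the data, not the design. Samples numbered 1 carry lane 4 and samples numbered 3 lane 5 in every group. Samples numbered 2 carry lane 4 in both normoxia groups and lane 5 in both hypoxia groups, so lane is not balanced between the conditions. With lane as a covariate, the hypoxia calls over all genes were 7188 in WT and 6276 in TAZKo, against 7355 and 6309. The replicate block raised the calls over all genes for that difference from 350 to 639. No filter gave 727 and DESeq2 574.

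Values near 0 changed sign, and the cause was not tested. The Fmod difference between responses was 0.0103 with DESeq2 size factors, 0.032 with upper quartile scaling, 0.0082 with library size alone, 0.0096 with the DESeq2 Wald test, 0.0444 with no filter, 0.0147 with a mean of at least 5 CPM, 0.0092 with the replicate block, 0.0036 with lane as a covariate, 0.0331 without WT normoxia sample 1 with the replicate block, and -0.11 to 0.27 with 1 sample left out. That of Dcn was 0.0112 with no filter, 0.0187 without WT normoxia sample 1 with the replicate block, and -0.13 to 0.11 with 1 sample left out. Omd in TAZKo hypoxia ranged from -0.22 to 0.0398 with 1 sample left out. Chad in WT hypoxia was -0.0049 with DESeq2 size factors, -0.053 with upper quartile scaling, -0.0974 with library size alone, -0.0674 with no filter, -0.0397 with only the 2 groups, and -0.35 to 0.28 with 1 sample left out. With 1 sample left out, Chad ranged from -0.12 to 0.31 in TAZKo hypoxia and from -0.19 to 0.44 in the difference between responses, Nyx in WT hypoxia from -0.36 to 0.0908 and Optc in TAZKo hypoxia from -0.11 to 0.28. Optc there was -0.0078 with library size alone.

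Scaling by library size alone gave all genes a median of -0.10 in both hypoxia comparisons, with 2966 higher and 4817 lower in WT and 2470 and 4393 in TAZKo, against 3750 and 3605, and 3198 and 3111. Depth limits Aspn, Ecm2 and Lum, at 9 counts or fewer in each library.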

Other observations

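Bgn lies 798 kb from Taz on chromosome X, an interval examined after its values were seen. The 21 tested genes from Bgn up to and including Taz had log2 differences between the labels from -1.29 (Srpk3) to 1.25 (L1cam) in normoxia, with a median of 0.06, and from -1.27 (Plxnb3) to 1.55 (L1cam) in hypoxia, with a median of 0.12. Bgn, at -3.60 and -4.17, was lower than each of them. Around the Fmod and Prelp pair on chromosome 1, the 12 tested neighbours within 500 kb ranged from -1.27 (Atp2b4, a calcium pump gene) to 0.91 (Cyb5r1) in normoxia, so Prelp at 1.68 was above all of them and Fmod at 0.41 was not.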
